A study of Caenorhabditis elegans with 21 samples.

Results

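The sperm genes described here are the loci of the count table that carry a gene name of the form msp, sss, ssp, nspd or spe followed by a number. There are 73 such loci of 33586 named loci: 31 msp, 12 ssp, 2 sss, 10 nspd and 18 spe. The filter on low counts kept 69 of them. The other 4, nspd-8, msp-32, ssp-11 and msp-74, were not tested, and all but msp-74 had no fragment in any of the 21 libraries.

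Whole day 1 adult hermaphrodites of Caenorhabditis elegans gave poly(A) RNA for 3 libraries of each of 7 genotypes. Beside the wild-type N2 and the single mutant daf-2(e1370) there were 5 strains that carry daf-2(e1370) together with a mutation of daf-16: daf-16(mu86), daf-16(mg54), daf-16(tm5030), daf-16(tm5032) and daf-16(tm6659). They are called N2, daf-2, mu86, mg54, tm5030, tm5032 and tm6659 below, and all but N2 share the daf-2 mutation. The daf-2 gene encodes an insulin/IGF-1-like receptor, and daf-16 encodes the FoxO transcription factor that acts when the receptor is weakened. By the study's own description, mu86 is the null, mg54 affects isoforms a and f, and tm6659 affects isoform f. The alleles tm5030 and tm5032 are separate lesions of isoform a. All groups came from a 4-hour egg lay, were raised at 15 °C to the L4 stage and stayed at 20 °C for 20 to 24 hours more, and any plate with a male was discarded. The libraries carry replicate numbers 1, 2 and 3 in every genotype. The labels say neither what a number stands for nor that the libraries of a group came from separate cultures, so p-values measure the spread between these libraries, which may be technical.

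A hermaphrodite makes a limited stock of sperm during the last larval stage and then switches to oocytes for the rest of its life. Major sperm proteins (MSPs) are small cytoskeletal proteins that assemble into the filaments on which the amoeboid nematode sperm crawls. They are also released as a signal that starts oocyte maturation and contraction of the gonadal sheath. Their genes are transcribed in spermatocytes, and mature sperm make no new RNA. In whole animals, fewer spermatogenic cells and less RNA per cell cannot be told apart.

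The 30 msp gene names of the table matched 30 genes of Ensembl release 115 (WBcel235), all with 1 exon and 28 with a coding sequence of 381 bases. They lie in 4 groups: 10 genes at II:4785898-5200180, 3 at II:5797065-5810330, 8 at IV:5055631-5316906 and 9 at IV:9689015-10143740. Of 71 matched genes of all 5 families, 15 lie on chromosome I, 15 on II, 3 on III, 32 on IV, 6 on V and 0 on X. The msp copies are near-identical, so the authors' counting could move fragments between them, and the values of single msp loci are uncertain for that reason. Of the 73 loci, 26 carry fractional counts in at least 1 library, and 9 are merged with neighbouring genes. In such a merged locus a change cannot be assigned to the sperm gene.

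Per length, the msp loci were the most abundant family, with a median over loci of 110.6 FPKM (fragments per length of transcript and per library depth, the authors' value averaged over 21 libraries). They ranged from 4.29 FPKM for msp-63 to 251.9 FPKM for msp-76, apart from the 2 copies that were not tested. The median was 45.1 FPKM for the nspd loci (small nematode-specific peptides), 38.6 for the 2 sss loci and 14.0 for the ssp loci (both sperm-specific families). It was 3.42 FPKM for the spe loci, a mixed group named for defective spermatogenesis that includes signalling, fertilization and trafficking genes. The 64 loci that hold a single gene made up 0.0213% to 0.283% of a library's fragments. Libraries held 30384772 to 47170645 fragments, and the ranges of the 3 replicate numbers overlapped.

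The families moved together from library to library, and the replicate number ordered them more closely than the genotype did. The summed level of the 30 msp loci that hold a single gene, in CPM (counts scaled to the size of the library), was 188, 133.7 and 667.9 in N2 libraries 1, 2 and 3. In daf-2 it was 1109, 363.8 and 1276 CPM. N2 had a mean of 330 ± 294 CPM and daf-2 one of 916 ± 486 CPM (SD, n = 3 each), so the ranges overlapped.

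In mu86 the summed msp level was 604.8, 1128 and 2199 CPM, and in mg54 it was 921.6, 497.4 and 2100 CPM. In tm5030 it was 628.5, 152.1 and 2041 CPM, and in tm5032 it was 609.9, 93.12 and 1709 CPM. In tm6659 it was 670.8, 437.5 and 1164 CPM. Library 3 was the highest of its genotype in all 7 genotypes. Library 2 was the lowest in 6 of them, and in mu86 library 1 was the lowest. The level of library 3 over library 2 ran from 1.95-fold in mu86 to 18.4-fold in tm5032.

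**Figure D1:**
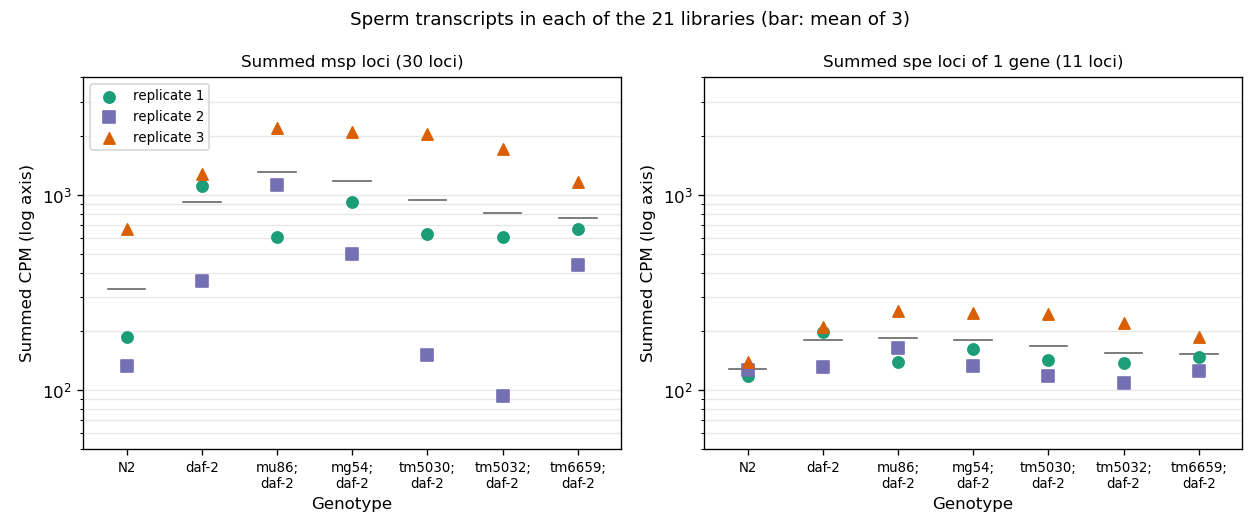
Summed CPM (log axis) of the 30 msp loci (left) and of the 11 spe loci that hold a single gene (right) in each library, by genotype, with the replicate number as colour and shape and the mean of 3 libraries as a bar. Replicate 3 is the highest msp point of every genotype, and the spe sum spans a narrower range, 108.5 to 252.7 CPM.

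The 2 sss loci had the same order. Their sum was lowest in library 2 of tm5032 (6.77 CPM) and highest in library 3 of mu86 (164.1 CPM). The ssp loci (11 with a single gene) ran from 6.23 to 105.8 CPM and the nspd loci from 8.01 to 119 CPM, with both extremes in the same 2 libraries. The spe sum spanned only 108.5 to 252.7 CPM. It includes spe-39, a trafficking gene with roles outside the germ line, at a mean of 79.2 CPM.

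**Figure D2:**
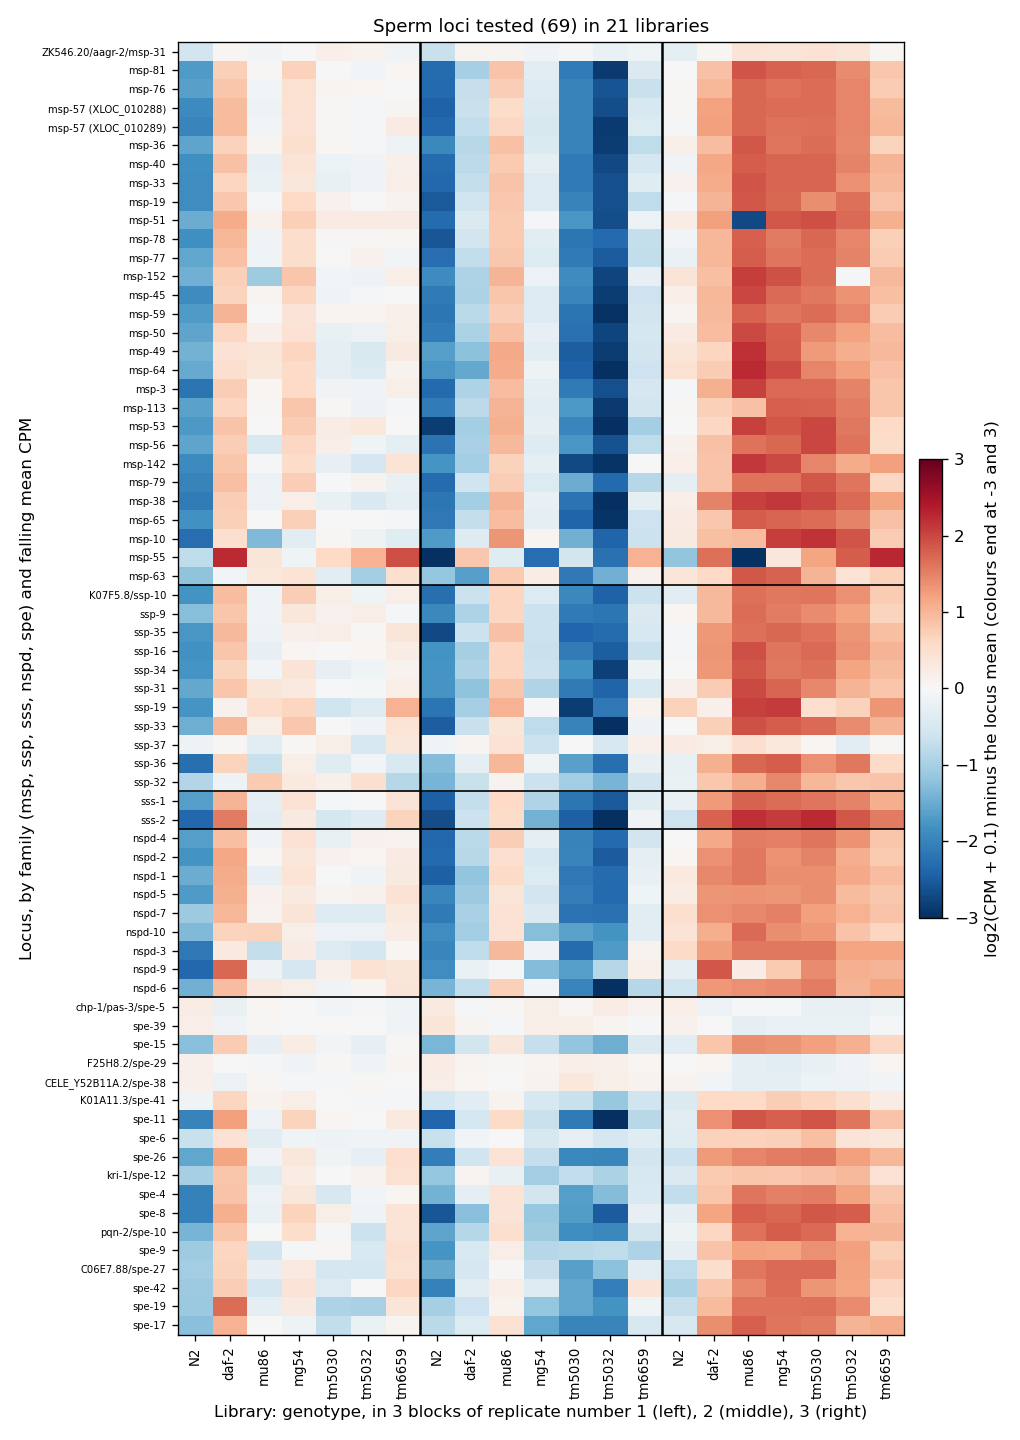
Level of each of the 69 tested loci (rows, by family) in the 21 libraries (columns, in blocks of replicate number), as log2(CPM + 0.1) minus the mean of the locus. Most rows share one pattern of columns, while chp-1/pas-3/spe-5, spe-39, the loci of spe-29 and spe-38, ssp-37 and the locus of msp-31 stay near their mean.

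The first genotype comparison, daf-2 against N2, asks what lowered insulin-like signalling does to these transcripts. In edgeR's quasi-likelihood test over the 12091 loci tested, with genotype as the only term and Benjamini-Hochberg adjustment, 3 of the 69 sperm loci passed an adjusted p of 0.05, against 16.7% of all loci tested. Of these 3, 2 were higher (10.9% of all loci) and 1 was lower (5.84% of all loci). Among all loci called, 65% were higher, but 38.3% on FPKM, where the median of all loci shifted to -0.37. Of the sperm loci, 11 of 69 had an unadjusted p under 0.05. The share of all loci at that threshold is not given here, and the 16.7% is for an adjusted p. The log2 change was above 0 for 65 of the 69, with a median of 1.53, where the median of all loci was 0.08. The median standard error of a sperm locus was 0.97.

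Of the 2 loci that rose, nspd-9 had the larger change, with 0.131, 0.223 and 0.856 CPM in the N2 libraries and 3.78, 0.917 and 4.16 CPM in the daf-2 libraries. Every daf-2 library lay above every N2 library, at low counts. Of the 69 sperm loci, 11 lay higher and 3 lower in daf-2 without overlap, against 38.9% of all loci in either direction. The log2 change of nspd-9 was 2.86 ± 0.88 (SE; adjusted p = 0.0333, edgeR).

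The merged locus ZK546.20/aagr-2/msp-31 was at 224, 211 and 277 CPM in N2 and at 346, 352 and 346 CPM in daf-2, with no overlap, like 38.9% of all loci. Its log2 change was 0.55 ± 0.16 (adjusted p = 0.0282, edgeR), and limma on FPKM did not call it (adjusted p = 0.721). It also holds aagr-2, a gene for an acid alpha-glucosidase, and its libraries differed far less than those of the other msp loci, with an SD of 0.28 log2 units over the 21 libraries.

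The locus that fell, chp-1/pas-3/spe-5, was at 471, 486 and 465 CPM in N2 and at 348, 394 and 357 CPM in daf-2. Its log2 change was -0.37 ± 0.10 (adjusted p = 0.0196, edgeR). It holds pas-3, a proteasome subunit gene, and spe-5, a gene for a subunit of the vacuolar proton pump.

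The calls of these 3 loci depended on single libraries. Without N2 library 2, 0 sperm loci were called by edgeR, and without N2 library 1, daf-2 library 1 or daf-2 library 3, 1 was called. Other tools called 6 (DESeq2), 2 (limma-voom) and 1 (limma on FPKM). The share of all loci called in these other fits is not given here.

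The abundant members show the size of the spread. The locus of msp-81, one of the most abundant msp copies, was at 18.5, 12.0 and 60.2 CPM in N2 and at 98.5, 30.1 and 110 CPM in daf-2. Its log2 change of 1.40 ± 0.98 did not pass (adjusted p = 0.318, edgeR), and N2 library 3 lay above daf-2 library 2. The locus of msp-76 behaved alike, at 17.8, 11.0 and 56.9 CPM in N2 and 99.4, 34.5 and 111 CPM in daf-2 (1.51 ± 0.95, adjusted p = 0.268).

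Members of the other families gave values of the same kind. The sss-2 locus was at 2.16, 1.75 and 7.42 CPM in N2 and at 33.9, 7.34 and 39.8 CPM in daf-2 (2.84 ± 1.30, adjusted p = 0.146, edgeR). Its ranges met at 7.42 and 7.34 CPM. The spe-11 gene, whose product is delivered by the sperm and needed in the embryo, was at 1.64, 1.24 and 5.42 CPM in N2 and 16.1, 4.72 and 17.9 CPM in daf-2 (2.22 ± 1.09, adjusted p = 0.173).

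Among the most abundant ssp and nspd loci, K07F5.8/ssp-10 was at 5.73, 4.10 and 16.0 CPM in N2 and 37.9, 12.7 and 39.5 CPM in daf-2, and nspd-4 at 3.50, 2.1 and 11.3 CPM and 21.1, 6.35 and 24.5 CPM. Their log2 changes of 1.8 ± 0.91 and 1.62 ± 0.93 did not pass (adjusted p = 0.183 and 0.231, edgeR). The other abundant members had changes of 1.33 ± 0.89 (ssp-9), 1.87 ± 1.02 (ssp-35), 1.89 ± 1.01 (sss-1), 1.84 ± 0.93 (nspd-2), 1.63 ± 0.97 (nspd-1) and 1.37 ± 0.70 (spe-15), and the 2 loci named msp-57 had changes of 1.72 ± 0.99 and 1.79 ± 0.99. None of them passed. The ubiquitous spe-39 was at 90.2, 102 and 86.6 CPM in N2 and 73.5, 83.0 and 77.6 CPM in daf-2 (-0.25 ± 0.12, adjusted p = 0.146), the opposite sign to these.

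Levels in the daf-16 mutants overlapped those of daf-2 for msp-81 and spe-15, but not for every abundant locus. The merged locus chp-1/pas-3/spe-5 was at 420, 417 and 395 CPM in mu86 and at 348, 394 and 357 CPM in daf-2. For mu86 against daf-2, 2 of 69 sperm loci lay higher and 1 lower without overlap, against 27.7% of all loci in either direction. The locus of msp-81 was at 79.7 ± 43.3 CPM in daf-2, 131 ± 83.6 in mu86, 117 ± 80.3 in mg54, 90.7 ± 96.1 in tm5030, 75.5 ± 78.7 in tm5032 and 70.6 ± 31.1 in tm6659 (SD, n = 3 each). Neighbours in this order did not differ beyond their SDs. The spe-15 locus ran from 46.3 ± 37.5 CPM in tm5032 to 66.9 ± 39.7 in mu86, with 58.2 ± 25.6 in daf-2 and 22.5 ± 9.8 in N2.

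The comparisons of each daf-16 mutant with daf-2 ask whether daf-16, or 1 of its isoforms, changes these transcripts. In mu86, 0 of 69 sperm loci passed edgeR's test, against 10.3% of all loci, and in mg54 0 of 69 against 9.35%. The counts were 0 of 69 in tm5030 (0.91% of all loci), in tm5032 (1.04%) and in tm6659 (0.174%). No sperm locus had an unadjusted p under 0.05 in any of these 5 comparisons, and DESeq2 and limma-voom also called 0. All 5 share the daf-2 libraries.

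The median log2 change over the 69 loci was 0.37 in mu86, 0.17 in mg54, -0.03 in tm5030, -0.28 in tm5032 and -0.31 in tm6659, where the medians of all loci lay between -0.03 and -0.01. Leaving out library 3 of the mutant turned the median of mu86 to -0.17 and that of mg54 to -0.48. Without library 2 of the mutant it was 0.43 in tm5030 and 0.23 in tm5032, and without daf-2 library 3 it was 0.05 in tm6659. The standard error of a single sperm locus had a median of 0.94 to 0.95 in these comparisons. With the replicate number in the model the medians were 0.45 in mu86, 0.08 in mg54, -0.41 in tm5030, -0.58 in tm5032 and -0.25 in tm6659. In that fit 7 of the 69 loci lay above 0 in tm5030 and 4 in tm5032, against 29 and 8 without the number.

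Over all 7 genotypes, the genotype term passed in 0 of 69 sperm loci, against 13.9% of all loci. At an unadjusted p under 0.05 there was 1 sperm locus, and the share of all loci at that threshold is not given here. DESeq2 called 1. Without library 2 of tm5032, edgeR called 1.

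**Figure D3:**
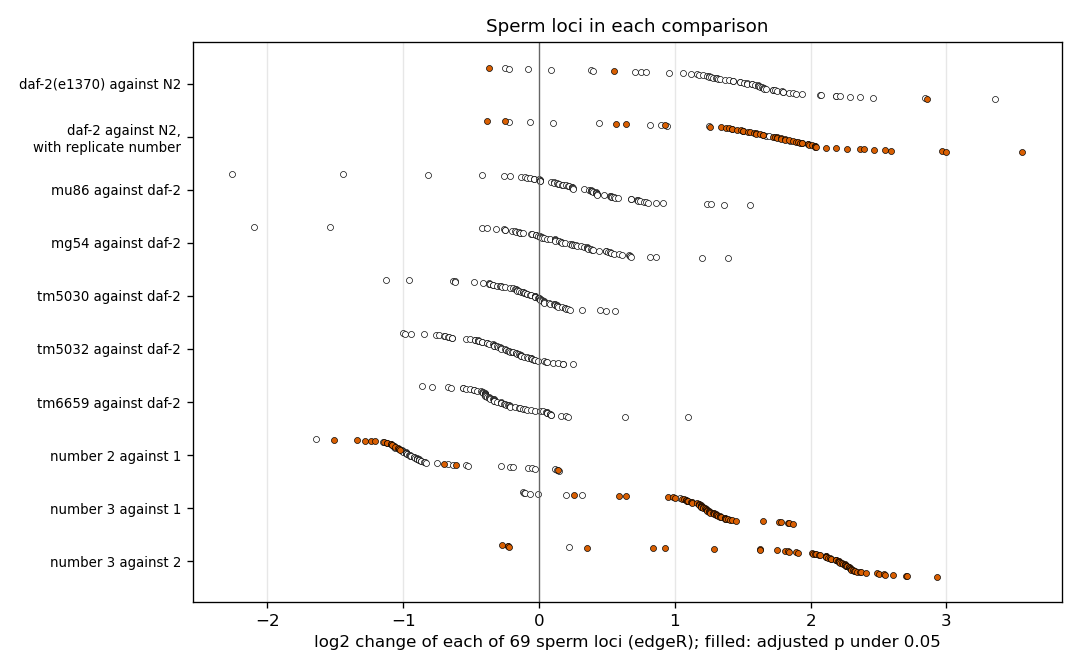
Log2 change of each of the 69 loci (points, spread vertically in order of size) in each comparison, filled where the adjusted p of edgeR is under 0.05. The points of daf-2 against N2 lie mostly above 0 with 3 filled, and become filled for 57 loci when the replicate number is a term of the model. Without that term, those of the 5 daf-16 mutants have 0 filled, and from 8 (tm5032) to 56 (mu86) of the 69 lie above 0.

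Replicate number was then tested as a term beside genotype. The replicate-number term passed in 68 of 69 sperm loci, against 65.2% of all loci (edgeR). The locus that did not pass was ssp-37. The term is thus called for most loci of the table, sperm genes or not.

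Libraries numbered 3 against those numbered 2 gave 64 sperm loci higher and 4 lower, where 36.2% of all loci were higher and 30.8% lower (67% in all). The median log2 change of the 69 was 2.20, against 0.07 for all loci. All 29 tested msp loci, both sss loci and all 9 tested nspd loci were higher, with 10 of 11 ssp and 14 of 18 spe loci. In each single genotype 61 to 65 of the 69 lay higher in library 3 than in library 2, and 59 did so in all 7 genotypes.

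The largest of these changes was that of the sss-2 locus, which ran from 1.15 CPM (tm5032) over a median of 4.22 to 17.0 (mu86) in the libraries numbered 2. In those numbered 3 it ran from 7.42 (N2) over a median of 42.0 to 54.3 CPM (tm5030). The ranges overlapped because library 3 of N2 lay below library 2 of mu86 and of tm6659. The log2 change was 2.93 ± 0.44 (adjusted p = 8.88e-05, edgeR).

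Next among loci of at least 2 CPM came spe-8, which encodes a tyrosine kinase of the pathway that activates sperm, at 2.61 ± 0.39 (adjusted p = 8.72e-05, edgeR). Of the same size were ssp-33 (2.55 ± 0.43), msp-38 (2.54 ± 0.42) and spe-11 (2.50 ± 0.39). The abundant msp-81 changed by 2.26 ± 0.36 and msp-76 by 2.21 ± 0.34. The spe-15 gene, which encodes a myosin needed to sort the contents of the dividing spermatocyte, changed by 1.63 ± 0.22.

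The 4 loci that fell between number 2 and number 3 were spe-39 (-0.23 ± 0.05), chp-1/pas-3/spe-5 (-0.22 ± 0.04), F25H8.2/spe-29 (-0.23 ± 0.05) and CELE_Y52B11A.2/spe-38 (-0.27 ± 0.06; adjusted p = 0.000807, edgeR). Of these, 3 are merged with other genes, and spe-39 is known to act in other tissues too. The remaining locus, ssp-37, changed by 0.22 ± 0.16 (adjusted p = 0.215).

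Libraries numbered 3 against those numbered 1 gave 61 sperm loci higher and 0 lower, where 22.4% of all loci were higher and 16.6% lower (39% in all). The median log2 change was 1.21, against 0.03. The largest changes among loci of at least 2 CPM were those of msp-38 (1.87 ± 0.40), msp-10 (1.84 ± 0.46), nspd-3 (1.78 ± 0.36), sss-2 (1.77 ± 0.41) and msp-33 (1.45 ± 0.33; adjusted p = 0.00542, edgeR). In daf-2 the distance was small: summed msp was 1.15-fold higher in library 3 than in library 1, against 3.64-fold in mu86.

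Libraries numbered 2 against those numbered 1 gave a weaker and less uniform difference. A total of 20 sperm loci passed, 1 higher and 19 lower, where 6.59% of all loci were higher and 10% lower (16.6% in all), with a median log2 change of -0.96. The largest among loci of at least 2 CPM were ssp-33 (-1.34 ± 0.42), spe-8 (-1.28 ± 0.38), msp-53 (-1.24 ± 0.41), spe-11 (-1.21 ± 0.38) and ssp-31 (-1.14 ± 0.33, adjusted p = 0.0403, edgeR). Below that level, ssp-32 had a larger change (-1.51 ± 0.48). The locus that rose was chp-1/pas-3/spe-5 (0.14 ± 0.04, adjusted p = 0.0376).

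That count turned on single libraries. It was within 1.5 times of 20 only when the library left out was daf-2 library 3, mu86 library 3, tm5030 library 3 or tm6659 library 3. For the other 17 libraries it ran from 0 to 57, the highest without mu86 library 2. The share of all loci called in each of these fits is not given here. In mu86, 63 of the 69 loci lay higher in library 2 than in library 1, while in the other 6 genotypes 4 to 17 did.

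Sums of squares of log2 CPM separate the sources for each locus. Over the 69 sperm loci, replicate number (2 degrees of freedom) took a median of 54.3%, genotype (6 degrees of freedom) 27.8% and the remainder 17.1%. Over all 12091 loci the medians were 31.8%, 37.4% and 22.2%. Replicate number took more than genotype in 62 of 69 sperm loci (89.9%), against 44.3% of all loci. The sperm loci also varied more in all, with a median SD of 1.30 log2 units over the 21 libraries, against 0.37 for all loci.

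The families were alike in this. The median share of replicate number was 53.7% in msp, 54.2% in ssp, 55.9% in sss, 55.2% in nspd and 54.1% in spe loci, and for the summed msp level it was 55% against 27.1% for genotype.

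Among loci of at least 2 CPM, replicate number took the least in ssp-37 (11%), msp-55 (17.6%), msp-51 (25.7%), ZK546.20/aagr-2/msp-31 (28.4%) and chp-1/pas-3/spe-5 (34%). The share of msp-51 includes library 3 of mu86 at 3.32 CPM, while libraries 3 of the other genotypes were at 25.7 to 84.5 CPM. Genotype took the most in ZK546.20/aagr-2/msp-31 (60.6%), chp-1/pas-3/spe-5 (52.2%), msp-55 (49.6%), ssp-19 (45%) and ssp-37 (43.2%). Of these, 2 are merged loci, and msp-55 has fractional counts in 20 libraries. On log2(FPKM + 1) the first of these, ZK546.20/aagr-2/msp-31, had only 28.4% by genotype and 62.5% by number.

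**Figure D4:**
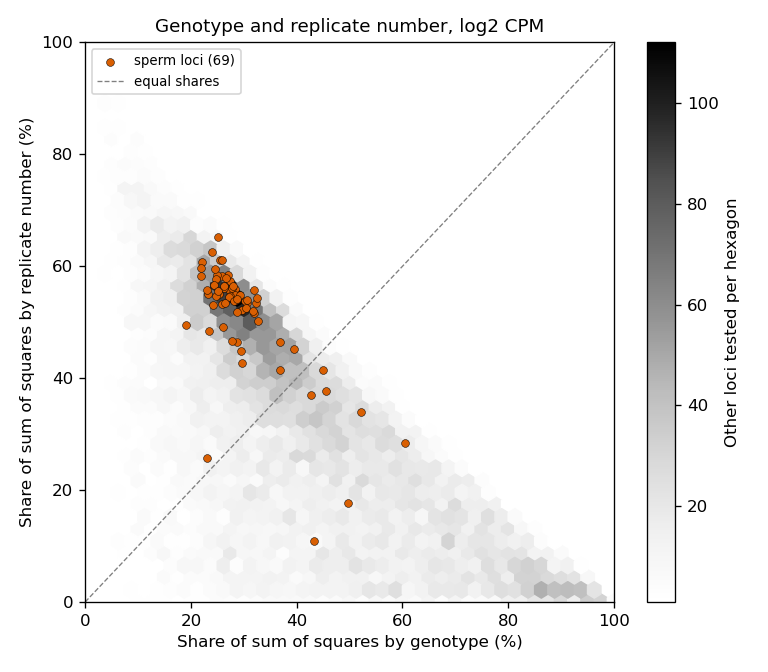
Share of the sum of squares of log2 CPM taken by genotype (horizontal, %) and by replicate number (vertical, %) for the 69 sperm loci (points) and all other loci tested (hexagons, darker where there are more). The sperm loci gather near their medians of 27.8% and 54.3%, and 62 lie above the line of equal shares.

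Compared within a replicate number, daf-2 lay above N2 for most sperm loci. Of the 69, 65 were higher in daf-2 among libraries numbered 1, 64 among those numbered 2 and 64 among those numbered 3. A total of 62 were higher in all 3 and 3 were lower in all 3. The summed msp level of daf-2 over N2 was 5.9-fold, 2.72-fold and 1.91-fold for numbers 1, 2 and 3, and the sss sum gave 7.99-fold, 3.54-fold and 3.35-fold.

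With replicate number as a term, edgeR called 57 sperm loci for daf-2 against N2, 55 higher and 2 lower, where 28.4% of all loci were higher and 15.7% lower (44.1% in all). The median log2 change was 1.72. All 3 loci called without the term were among the 57. The labels do not say that equal numbers share a day or batch. Over all loci the deviations of same-numbered N2 and daf-2 libraries from their group means correlated at -0.09 for number 1, 0.53 for number 2 and 0.41 for number 3, so the number is not shown to pair these 2 genotypes.

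In that fit msp-76 changed by 1.75 ± 0.51 (adjusted p = 0.012, edgeR), sss-2 by 3.00 ± 0.68 (adjusted p = 0.00288) and spe-11 by 2.39 ± 0.59 (adjusted p = 0.00508). The nspd loci all passed (9 of 9), as did both sss, 22 of 29 msp, 8 of 11 ssp and 14 of 18 spe loci in the upward direction. The 2 lower loci were chp-1/pas-3/spe-5 and spe-39. Not called were msp-49 (0.90 ± 0.49), msp-64 (0.94 ± 0.53), msp-63 (0.44 ± 0.49), ssp-19 (0.82 ± 0.53), msp-10, msp-51, msp-113, msp-152, ssp-32, ssp-37 and the loci of spe-29 and spe-38. The genotype term over all 7 genotypes passed in 42 sperm loci with the number in the model, against 44.3% of all loci.

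The daf-16 mutants gave few calls with the number in the model either. In mu86, msp-63 (1.47 ± 0.46, adjusted p = 0.0316, edgeR) and ssp-19 (1.58 ± 0.51, adjusted p = 0.0362) were higher, against 9.68% of all loci (21.8% in either direction). In mg54, nspd-9 was lower (-1.63 ± 0.49, adjusted p = 0.0282), against 10.6% of all loci, and chp-1/pas-3/spe-5 was higher (0.19 ± 0.06, adjusted p = 0.0378), against 8.41% (19% in either direction). In tm5030, tm5032 and tm6659, 0 sperm loci passed, with 3.76%, 3.63% and 0.703% of all loci called. At an unadjusted p under 0.05 there were 1, 8 and 2 sperm loci, and the share of all loci at that threshold is not given here. DESeq2 and limma were not run with this term for genotype.

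Within numbers, the direction of mu86 against daf-2 was not stable. The summed msp level of mu86 was 0.545-fold that of daf-2 for number 1, 3.1-fold for number 2 and 1.72-fold for number 3. For tm5032 the values were 0.55-fold, 0.256-fold and 1.34-fold, and for tm5030 0.567-fold, 0.418-fold and 1.6-fold. Only 5 of 69 sperm loci were higher in mu86 than in daf-2 in all 3 numbers, and 2 were lower in all 3.

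The level of a locus relative to the summed msp level of its own library removes what all msp loci share. On this scale, with 0.1 CPM added to the locus only, msp-49, chosen here after its values were seen, differed by genotype more than by number. Its log2 ratio to the msp sum was -4.78, -4.52 and -4.82 in N2, -5.49, -5.56 and -5.48 in daf-2, and -4.70, -4.81 and -4.72 in mu86. It was -5.02, -5.10 and -5.03 in mg54 and -4.93, -5.14 and -5.01 in tm6659, but -5.37, -5.53 and -5.52 in tm5030 and -5.53, -5.19 and -5.47 in tm5032. The libraries of daf-2, tm5030 and tm5032 thus lay below all libraries of the other 4 genotypes, and genotype took 92.3% of the sum of squares of the ratio.

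The ratio of msp-64, also chosen after its values were seen, was lowest in the same 3 genotypes, with means from -5.74 in daf-2 to -4.94 in mu86 (genotype 88.7%). It lies near msp-63 and msp-142, while msp-49 lies with msp-50 in another group on the same chromosome. For ssp-19 the lowest means were those of tm5030 (-9.23) and daf-2 (-8.96) and the highest that of tm6659 (-7.70). The abundant msp-81 had means of only -3.54 to -3.32. The msp copies share sequence, and how fragments were divided between them was not tested.

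A fit with a covariate for the overall sperm level, added after the data were seen, was run across all loci. The fit uses the same libraries as the ratios. Its p-values for msp-49, which was picked on its ratio, are therefore not a separate test. The covariate was the mean log2 CPM of 12 sperm genes outside the 5 families (gsp-3, fer-1, ssq-1 to ssq-4 and others), which ran from 0.88 in library 2 of tm5032 to 5.01 in library 3 of mu86. With it, the median log2 change of the 69 loci for daf-2 against N2 was 0.18, and 16 were called, 13 higher and 3 lower, where 15.8% of all loci were higher and 9.25% lower (25.1% in all). The log2 change of msp-49 was -0.69 ± 0.10 for daf-2 against N2 (adjusted p = 7.23e-05, edgeR), 0.67 ± 0.09 for mu86 against daf-2 (adjusted p = 4.16e-05), 0.40 ± 0.09 for mg54 and 0.44 ± 0.09 for tm6659 (adjusted p = 0.0206). For tm5030 it was 0.08 ± 0.10 and for tm5032 0.03 ± 0.10, neither of which passed.

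The sss-2 and nspd-9 loci moved the opposite way to msp-49 in that fit. For daf-2 against N2, sss-2 changed by 0.83 ± 0.18 and nspd-9 by 1.74 ± 0.38 (adjusted p = 0.00202 and 0.00233, edgeR). For mu86 against daf-2 they changed by -0.89 ± 0.15 and -1.69 ± 0.32 (adjusted p = 0.000331 and 0.000713). Sperm loci called were 15 in mu86 (25.6% of all loci), 16 in mg54 (24.3%), 1 in tm5030 (7.01%), 1 in tm5032 (7.55%) and 2 in tm6659 (1.42%). The share of the sperm loci called was 21.7%, 23.2%, 1.45%, 1.45% and 2.9% in the same order, below that of all loci except in tm6659.

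**Figure D5:**
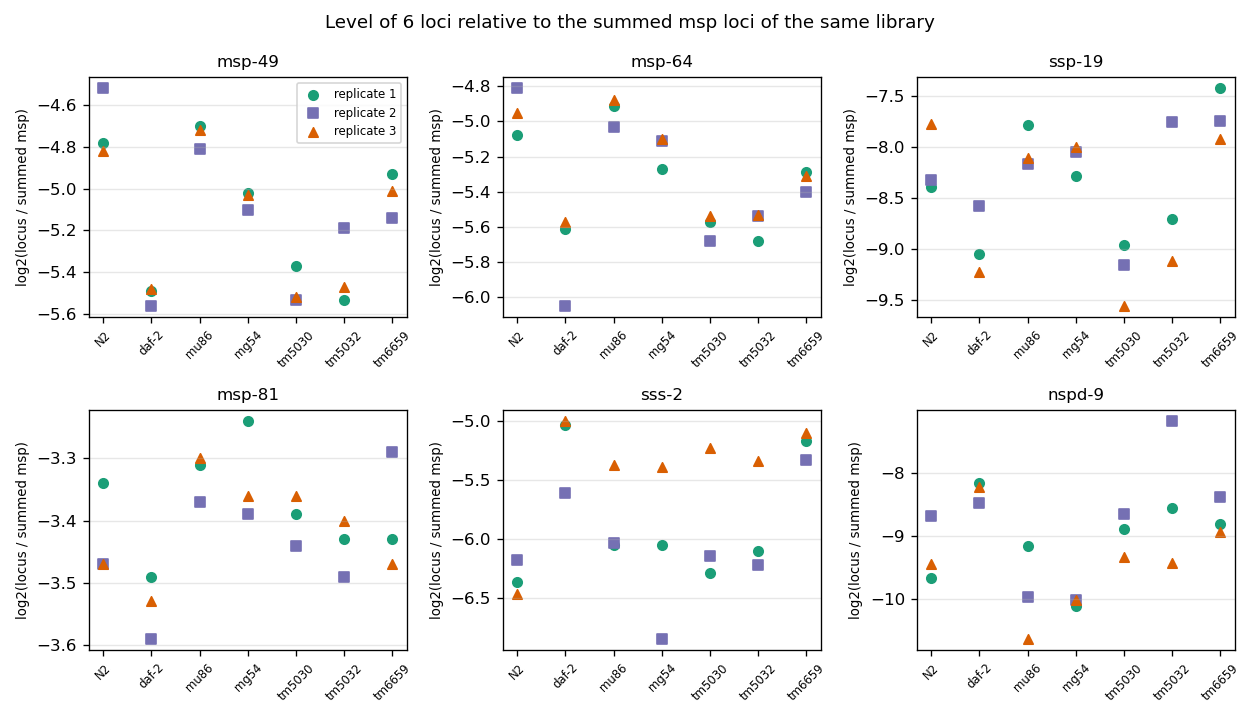
Log2 ratio of 6 loci to the summed msp level of the same library, by genotype, with replicate number as colour and shape. For msp-49 the 9 libraries of daf-2, tm5030 and tm5032 lie at or below -5.19 and the others at or above -5.14. For sss-2 replicate 3 is the highest point of every genotype except N2, by a small distance in daf-2 and tm6659.

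Other genes of sperm and of the germ line were read beside these results. Sperm genes outside the 5 families had 14 tested loci, 12 of which gave the covariate. Of the 14, 13 were higher in number 3 than in number 2 and 0 lower, against 36.2% and 30.8% of all loci. Their median log2 change was 2.17. Among them were fer-1, needed for fusion of the sperm's membranous organelles (2.38 ± 0.33), and gsp-3, a sperm phosphatase (2.55 ± 0.38, adjusted p = 8.79e-05, edgeR). For daf-2 against N2, 1 of 14 was called, and it was higher, against 10.9% of all loci higher. It was C25E10.10/C25E10.8/swm-1, at 1.27 ± 0.20 (adjusted p = 0.000317, edgeR). This locus merges swm-1, an inhibitor of premature sperm activation, with neighbouring genes, so the change cannot be assigned to swm-1. With the replicate number in the model 11 of 14 were higher and 0 lower, against 28.4% of all loci higher, with fer-1 at 2.11 ± 0.51 and gsp-3 at 2.37 ± 0.58 (adjusted p = 0.00478, edgeR).

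Markers of oocytes and eggshell went the other way between numbers. All 19 tested were lower in number 3 than in number 2, against 30.8% of all loci, with a median log2 change of -0.37. Their summed level was 13800 to 17800 CPM in the libraries numbered 2 and 10500 to 15200 CPM in those numbered 3. Examples are puf-5 (in F54C9.9/puf-5, -0.56 ± 0.07), an RNA-binding protein of oocytes, and cpg-2, an eggshell proteoglycan (-0.36 ± 0.05, adjusted p = 8.79e-05, edgeR). For daf-2 against N2, 0 of 19 passed, against 5.84% of all loci lower, and 8 were lower with the replicate number in the model, against 15.7% of all loci.

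The counts of the other lists are to be read against 36.2% of all loci higher and 30.8% lower in number 3 than in number 2. Of 12 meiosis genes 9 were lower and 0 higher in number 3 than in number 2, and of 15 regulators of sperm fate 11 were lower and 2 higher. Of 12 genes that receive the MSP signal or act in the gonadal sheath 4 were higher, near the share of all loci, and 6 lower. Among them vab-1, an Eph receptor that binds MSP on oocytes, changed by -0.37 ± 0.06, and gsa-1, a G protein of the sheath, by 0.62 ± 0.09 (adjusted p = 8.16e-05, edgeR). Of 8 embryo markers 1 was higher and 1 lower, and of 5 yolk protein loci 0 were higher and 2 lower. Between genotypes, the summed level of the oocyte and eggshell list was 15200 to 17600 CPM in N2 and 13000 to 15600 CPM in daf-2. The part of these shifts in the sperm results was not tested.

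Males would be another source of sperm RNA. Of 10 markers of the male tail, male neurons and seminal fluid found in the table, 2 had enough counts to be tested. The summed level of all 10 was 0.541 to 0.83 CPM in N2 and 0.819 to 1.05 CPM in daf-2, 0.375 to 1.12 CPM in the libraries numbered 2 and 0.83 to 1.64 CPM in those numbered 3. Of the markers of male neurons, cwp-1 was at 0 in all 21 libraries, cwp-2 and cwp-3 in 20, lov-1 in 14, the locus of pkd-2 in 6, cwp-5 in 5 and cwp-4 in 1. The seminal fluid protease gene try-5 and the ray gene ram-5 were at 0 in 1 library each, and mab-3, a regulator of male development, in 0. The highest level of any of the 10 in a library was 0.836 CPM, for mab-3. One of the 2 tested, cwp-4, was higher in number 3 than in number 2 (1.21 ± 0.50, adjusted p = 0.0423, edgeR).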

How the data were processed

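Fragments were counted by the authors, who deposited expected counts per locus and FPKM for 21 libraries. Per the submitters' processing notes, CASAVA 1.8.2, TopHat2 2.0.9 and Cufflinks 2.1.1 were used. No source used here gives the genome build, the annotation or the strand setting. Per the labels' protocols, poly(A) RNA was sequenced from both ends for 100 cycles, with 4 libraries in a lane. Of the deposited count values, 86.3% were whole (tolerance 1e-09), and the expected counts were rounded.

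In R 4.3.3, edgeR 4.0.16 (TMM, filterByExpr) was fitted to all 21 libraries with genotype as the only term, by its quasi-likelihood test with Benjamini-Hochberg adjustment over 12091 loci at 0.05. Replicate-number contrasts came from a model with genotype and number. A further 300 loci without a name, with 1.06% to 1.54% of the counts, and 3 footer rows were left out, and 0 sample columns. Alternatives were RLE and upper-quartile scaling, no filter, a mean of at least 2 CPM, limma-voom and limma on log2(FPKM + 1) and log2(FPKM + 0.1) (limma 3.58.1), DESeq2 1.42.0, a replicate block, the genotypes compared alone, and leaving out libraries. Fold changes on log2(FPKM + 1) understate the change of low loci. The scripts were tested on simulated data. Libraries of 30384772 to 47170645 fragments limit the precision of loci near 1 CPM.

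Named loci were the 5 msp loci and the 3 of each other family with the highest mean CPM, those called between genotypes, the 5 largest called changes between numbers in each direction, the extremes of the variance shares, and up to 4 of each gene list. Members and lists were chosen with earlier results of these data known. Sequences are not used here.

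Pairing by number was checked over all loci as the correlation of same-numbered libraries' deviations from their group means. Every pair exceeded 0.1 for daf-2 with mg54 (0.13, 0.64 and 0.5), tm5030 (0.17, 0.75 and 0.57), tm5032 (0.26, 0.75 and 0.55) and tm6659 (0.35, 0.6 and 0.62), but not for N2 (-0.09, 0.53 and 0.41) or mu86 (-0.32, 0.21 and 0.47).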

Additional observations from a re-analysis of the deposited data

Results flagged for a closer look

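In 4 of the 5 families the order of libraries 1 and 2 was turned in mu86. The summed level in library 2 over that in library 1 was 1.86 for msp, 1.69 for ssp, 1.86 for sss and 1.51 for nspd loci in mu86. In the other 6 genotypes it was 0.153 to 0.711 for msp, 0.201 to 0.76 for ssp, 0.161 to 0.613 for sss and 0.195 to 0.681 for nspd loci. Each value rests on 1 library of a genotype and number, and the difference between mu86 and the other genotypes was not tested. The spe sum was also higher in library 2 of N2 (1.08) and of mu86 (1.19).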

How the results depend on the processing

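The counts of this part are of sperm loci, without the share of all loci under the same setting unless it is stated. The number of sperm loci called for daf-2 against N2 (3) was 1 on FPKM with 1 or 0.1 added, 6 with DESeq2, 9 with only the 2 genotypes in the fit, 0 without the 7 libraries numbered 1 and 5 without those numbered 3. It ran from 0 to 4 when single libraries were left out. With the replicate block it was 57, and for mu86 it was 2, for mg54 2 and for the genotype term 42. The block changed no other genotype count, and 18 of 21 libraries correlated best with a library of their own number. With the covariate for the sperm level, counts were 16 for daf-2 against N2, 15 for mu86 and 16 for mg54. They were 1 for tm5030, 1 for tm5032 and 2 for tm6659. The genotype term passed in 19 of 69 sperm loci (27.5%) in that fit, against 4048 of all 12091 loci. With the covariate the median change for daf-2 against N2 was 0.18 in place of 1.53, and 44 of the 69 sperm loci lay above 0 in place of 65. Among the most abundant loci of each family, msp-81 (-0.06) and ssp-9 (-0.07) turned sign. The genotype term was called in 1 locus with upper-quartile scaling, with DESeq2 and without the libraries numbered 3, and in 0 to 1 with single libraries left out.

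For number 2 against 1 the main fit called 20 of 69 sperm loci and 2009 of all 12091 loci. The share of all loci called under the settings below is not given here. These counts therefore do not compare sperm loci with other loci. The number of sperm loci called for number 2 against 1 was 6 with limma-voom, 43 and 44 on FPKM and 48 with DESeq2. It was 3, 0, 58, 0, 0, 0 and 1 without the libraries of N2, daf-2, mu86, mg54, tm5030, tm5032 and tm6659. It ran from 0 to 57 without single libraries, the number term from 66 to 68, number 3 against 1 from 48 to 64 and number 3 against 2 from 67 to 68. The median change ran from 1.11 to 2.46 for daf-2 against N2, -0.17 to 0.73 for mu86, -0.48 to 0.56 for mg54, -1.21 to 0.43 for tm5030, -1.32 to 0.23 for tm5032 and -0.69 to 0.05 for tm6659. It ran from -1.25 to -0.75 for number 2 against 1, 1.02 to 1.36 for 3 against 1 and 1.96 to 2.51 for 3 against 2. The cause of these moves was not tested.

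On log2(FPKM + 1) the median of all loci shifted to -0.37 for daf-2 against N2 and -0.34 for number 3 against 2, and the sperm medians were 0.88 and 1.61. The share of higher among all calls for daf-2 against N2 was 65%, but 54.8% with RLE, 50.4% with upper-quartile scaling and 38.3% on FPKM, and for number 3 against 2 it was 54% and 21.8% on FPKM. The calls of ZK546.20/aagr-2/msp-31 (upper-quartile scaling, no filter on low counts, and FPKM), nspd-9 (limma-voom, and the 2 genotypes alone) and chp-1/pas-3/spe-5 (FPKM) were lost under the settings in brackets, and all 3 without the libraries numbered 1. Loci under 1 CPM are limited by depth.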

Other observations

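Some msp loci had single libraries far from their usual share of the msp sum, and they are given here after their values were seen. The msp-51 locus was at 3.32 CPM in library 3 of mu86, -4.71 log2 units from its usual ratio to the msp sum, and msp-55 was at 0 in the same library. The msp-152 locus lay at -1.58 in library 3 of tm5032 (21.4 CPM) and at -1.13 in library 1 of mu86 (10.3 CPM), where msp-10 lay at -1.34 (2.97 CPM). The msp-55 locus lay more than 1 log2 unit off in 11 libraries. Its counts are fractional in 20 libraries and those of msp-10 in 21, while msp-51 and msp-152 have whole counts, and a part of shared fragments in these values was not tested.

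Yolk protein loci, 5 tested, were the list with calls in most genotype comparisons (edgeR). For daf-2 against N2, 1 was lower (vit-1, -0.30), against 5.84% of all loci lower. Compared with daf-2, 2 were higher in mu86 and in mg54 (vit-1, 0.89 ± 0.08 in both), against 4.13% and 3.77% of all loci higher. In tm5030 and in tm5032, 1 was higher (vit-1, 0.38 ± 0.08 and 0.41 ± 0.08), against 0.331% and 0.488% of all loci. Of the sheath and MSP reception list, itr-1, a receptor of inositol trisphosphate, was lower in libraries numbered 3 than in those numbered 1 (-1.01 ± 0.13).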
